A study of Danio rerio with 9 samples.

Results

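Larval zebrafish exposed to 10 µg/L PFNA were compared here with larvae exposed to 0.1 µg/L PFNA. The comparison takes 6 of the 9 RNA-seq libraries of the series, 3 at each concentration, and was not made directly between deposited columns, because each concentration had been normalized in a table of its own. Whole reads were therefore recovered from both tables, joined on the gene identifier and scaled together, and 18958 of the 19130 genes present in both tables had a mean of at least 10 scaled reads over the 6 libraries. The remaining 3 libraries came from carrier controls. The larvae came from AB × Tübingen parents and were kept in beakers for 7 days in medium with 10 µg/L PFNA, 0.1 µg/L PFNA or the carrier alone, with 0.1% DMSO in all groups. A library held the pooled RNA of the 14 to 15 whole larvae of a beaker, so that the replicate is the beaker and the spread between individual larvae is not seen. Pools of whole larvae mix all tissues, and fewer cells of a type cannot be told apart from less RNA per cell in them.

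PFNA (perfluorononanoic acid) is a long-chain perfluoroalkyl acid, a fully fluorinated fatty acid analog that resists degradation. Compounds of this class bind plasma proteins and fatty acid binding proteins, activate the fatty acid receptor PPARα in rodents, and are taken up by organic anion transporters in liver and kidney. The larval stage studied here is one in which axons are still finding their targets, synapses are forming and the liver has begun to secrete plasma proteins, and the gene lists below follow these processes. Genes were assigned to 42 lists by families of gene symbols, and some genes belong to more than 1 list. Genes of muscle, lens, retina, liver, pancreas, blood and the nervous system were all detected in these whole larvae.

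The reads on joined genes numbered 19159274, 17181171 and 18627420 in replicates 1 to 3 at 10 µg/L, against 14757801, 18830725 and 16203793 at 0.1 µg/L. The libraries did not separate evenly by concentration. In a principal component analysis of the 6 libraries, component 1 held 62.6% of the variance, and the scores on it were 39.6, 46.5 and 33 at 10 µg/L, against -77.3, 14 and -55.8 at 0.1 µg/L. Replicate 2 at 0.1 µg/L therefore stood apart from the other libraries of its group, toward the 10 µg/L side, and it was also the most deeply sequenced library of its group. With the DMSO controls included, scores on component 1 (52% of the variance) were -49, -30.8 and 41.6 in DMSO larvae, -68.5, 19.2 and -47.7 at 0.1 µg/L, and 44.5, 51.2 and 39.5 at 10 µg/L. DMSO replicate 3 thus lay with the 10 µg/L libraries as well. What set these libraries apart was not tested, and for most lists the counts below are also given with libraries left out. The DMSO libraries entered no test.

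**Figure D1:**
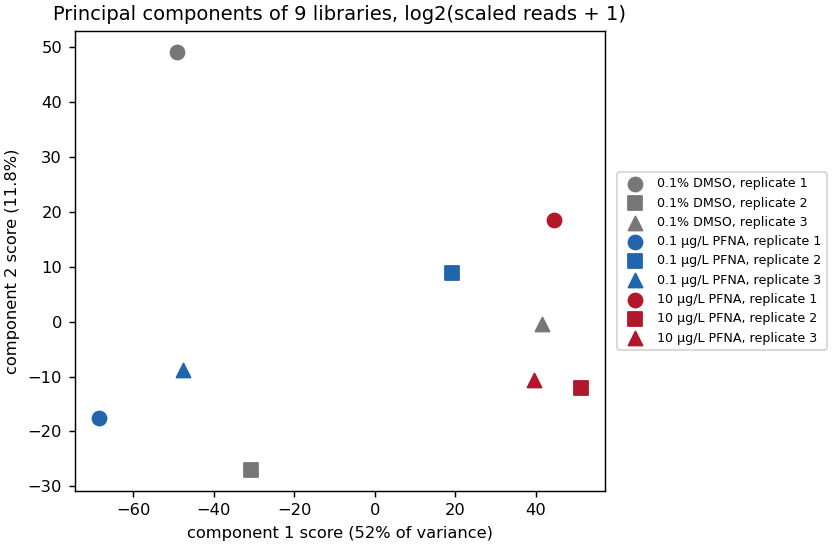
Scores of the 9 libraries on the first principal components (x axis, component 1 with 52% of the variance; y axis, component 2 with 11.8%; no units). Colors mark the group and symbols the replicate. The 3 libraries at 10 µg/L lie between 39.5 and 51.2 on component 1, beside DMSO replicate 3 at 41.6, while 0.1 µg/L replicate 2 lies at 19.2, apart from the other 0.1 µg/L libraries.

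Transcripts were called higher or lower at 10 µg/L where limma gave an unadjusted p-value under 0.05. After Benjamini-Hochberg adjustment limma left 0 genes under this threshold (lowest adjusted p = 0.0769). Of the 18958 genes, 4871 (25.7%) were called, 2685 of them higher (14.2%) and 2186 lower (11.5%). The DESeq2 Wald test on the same reads called 4463 genes (23.5%) without and 1678 (8.85%) with adjustment at the same threshold. These were 919 higher (4.85%) and 759 lower genes (4%), and all 1678 were among the limma genes. The edgeR quasi-likelihood test called 4698 genes (24.8%) at an unadjusted p-value and 0 genes at an adjusted one. For 28.8% of the genes the groups did not overlap, with all 3 libraries at 10 µg/L above all 3 at 0.1 µg/L for 2805 genes (14.8%) and below them for 2659 (14%). An exact permutation test of a single gene with 3 libraries per group cannot give a p below 0.1.

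The size of the differences was not the same in both directions. Called genes that were higher at 10 µg/L had a median log2 difference of 0.996, and those that were lower had a median of -0.528. A difference of 2-fold or more was found for 1518 of the called genes, 1339 higher and 179 lower. Genes called higher were also expressed at lower levels, with a median of 101 mean scaled reads over both groups, against 429 for genes called lower. Over all genes tested the median log2 difference was 0.00248. The count of calls depended on each 0.1 µg/L library. Limma called 7415 genes (39.1%) at an unadjusted p-value without 0.1 µg/L replicate 2, but 3054 without replicate 1 and 2880 without replicate 3. Without replicate 2, 5124 genes (27%) also passed after adjustment, namely 2841 (15%) higher and 2283 (12%) lower, and 1665 of the 1678 DESeq2 genes were among these. Replicate 2 had the value closest to the 10 µg/L side of its group for 2270 of the 2685 higher genes (84.5%) and 1876 of the 2186 lower genes (85.8%). The same share was not computed over all genes, so these values do not set the called genes apart from the rest. With libraries scaled to their total reads, in place of median-of-ratios factors, 4264 genes were higher and 776 lower, and the median log2 difference of all genes was 0.172. The most abundant gene, CR383676.1, which weighs most in a total of reads, took 2.77%, 2.07% and 2.21% of the reads at 10 µg/L, against 5.21%, 2.77% and 4.45% at 0.1 µg/L, and its part in that median was not tested.

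**Figure D2:**
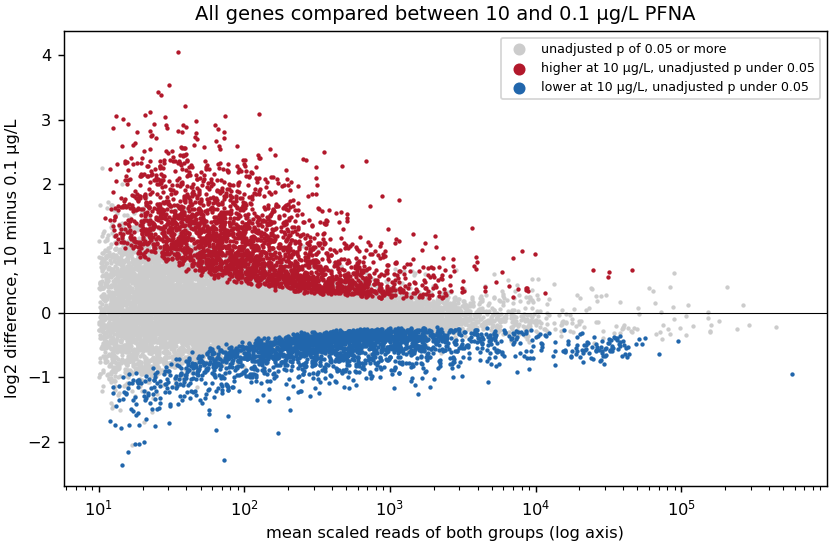
Log2 difference between 10 and 0.1 µg/L PFNA (y axis, positive values higher at 10 µg/L) against the mean scaled reads of both groups (x axis, log scale) for 18958 genes. Red points are the 2685 genes higher and blue points the 2186 genes lower at an unadjusted limma p-value under 0.05; the red points reach further from 0 and lie at lower levels (median 101 scaled reads) than the blue ones (median 429).

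The gene with the smallest limma p-value among those higher at 10 µg/L was dync1h1, the cytoplasmic dynein heavy chain gene, whose product moves cargo along microtubules. It had 2992, 2918 and 3030.5 scaled reads at 10 µg/L, against 1517, 1894 and 1592 at 0.1 µg/L. The La-related gene larp4aa, which encodes a poly(A) RNA-binding protein, had 142, 152 and 158 scaled reads at 10 µg/L, against 57.7, 53.2 and 49.4 at 0.1 µg/L. The libraries of each concentration lay close together for both genes, and the log2 differences were 0.84 (SE 0.11) and 1.48 (SE 0.20). A second La-related gene, larp1, whose product binds the mRNAs of ribosomal proteins, had 631, 636 and 686 scaled reads at 10 µg/L, against 278, 409 and 302 at 0.1 µg/L. The autophagy adaptor gene wdfy3 had 265, 386 and 239.9 scaled reads at 10 µg/L, against 74.4, 102 and 50.5 at 0.1 µg/L, a log2 difference of 1.99 (SE 0.27). For wdfy3 the lowest library at 10 µg/L was more than 2-fold above the highest at 0.1 µg/L. The NMDA receptor-associated gene grinaa had 348, 389 and 334 scaled reads at 10 µg/L, against 89.7, 161 and 89.8 at 0.1 µg/L, and cttn, which encodes the actin-binding protein cortactin, had 710.1, 642 and 657 scaled reads at 10 µg/L, against 273, 400.1 and 308 at 0.1 µg/L. In both genes 0.1 µg/L replicate 2 was the highest of its group but still below all 10 µg/L libraries.

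The sterol transfer gene gramd1ba was measured from few reads, with 61.8, 98.6 and 72.2 scaled reads at 10 µg/L, against 12.8, 20.0 and 20.2 at 0.1 µg/L, a log2 difference of 2.07 (SE 0.33). The SIN3-HDAC complex gene sinhcaf had 99.3, 118 and 114 scaled reads at 10 µg/L, against 16.7, 37.1 and 18.0 at 0.1 µg/L, the widest difference of these genes at 2.25 (SE 0.33). Both were higher in all 3 libraries at 10 µg/L than in any at 0.1 µg/L. DMSO controls had 10.4, 18.0 and 78.4 scaled reads of gramd1ba and 16.4, 38.8 and 91.7 of sinhcaf. DMSO replicate 3 thus lay inside the range at 10 µg/L for gramd1ba and just below it for sinhcaf. The MAP kinase phosphatase gene dusp1 had 1090.4, 1208 and 1003 scaled reads at 10 µg/L, against 667, 515 and 650.1 at 0.1 µg/L, with 0.1 µg/L replicate 2 the lowest of its group. Its DMSO values were 663, 919 and 1645, with DMSO replicate 3 above all libraries at 10 µg/L. The other top genes were plxna3, ppp3ccb, a catalytic subunit of calcineurin, and isg15, which are described with their lists or had a log2 difference of 1.13 (SE 0.17) in the case of ppp3ccb. DESeq2 gave these 12 genes adjusted p-values from 2.61e-07 to 0.000108.

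Among genes lower at 10 µg/L, the metalloproteinase inhibitor gene timp4.3 had the smallest p-value, with 364, 304 and 354 scaled reads at 10 µg/L, against 636, 623 and 647 at 0.1 µg/L. Its values were nearly the same within each concentration, replicate 2 included, and the log2 difference was -0.90 (SE 0.12). The nucleolar genes rsl1d1, pinx1 and lyar were lower as well. Scaled reads of pinx1, which encodes a telomerase inhibitor, were 1389, 1137 and 1347 at 10 µg/L, against 3183, 1902 and 2983 at 0.1 µg/L, a log2 difference of -1.03 (SE 0.18). For rsl1d1 they were 2627, 2520.0 and 2858 at 10 µg/L, against 4405, 3846 and 4797 at 0.1 µg/L. The translocon subunit gene sec61g had 3555, 3418 and 2987 scaled reads at 10 µg/L, against 5429.5, 4794 and 4879.9 at 0.1 µg/L, and the initiation factor gene eif3g had 4808, 4169.5 and 4161 scaled reads at 10 µg/L, against 6837, 6089 and 6607 at 0.1 µg/L. All 3 libraries at 10 µg/L lay below all 3 at 0.1 µg/L for each of these genes. The largest difference among the 12 was that of the clustered protocadherin pcdh1a3, with 32.8, 28.9 and 23.2 scaled reads at 10 µg/L, against 85.9, 69.4 and 104 at 0.1 µg/L, or -1.57 (SE 0.28) on the log2 scale. Clustered protocadherins share exons, so that the assignment of reads to one of them is uncertain. The ubiquitin ligase gene rnf25, the taxilin gene txlnbb, the Polycomb gene cbx7a, the mitochondrial cristae gene chchd6a and the translation-associated gene tma16 had log2 differences between -0.81 and -0.64. DESeq2 adjusted p-values of the 12 lower genes lay between 1.13e-05 and 0.003. Each of the 24 genes kept an unadjusted limma p-value under 0.05 when any library was left out. These genes were picked for the smallest p-values in the same libraries, so this is a description and no independent check.

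**Figure D3:**
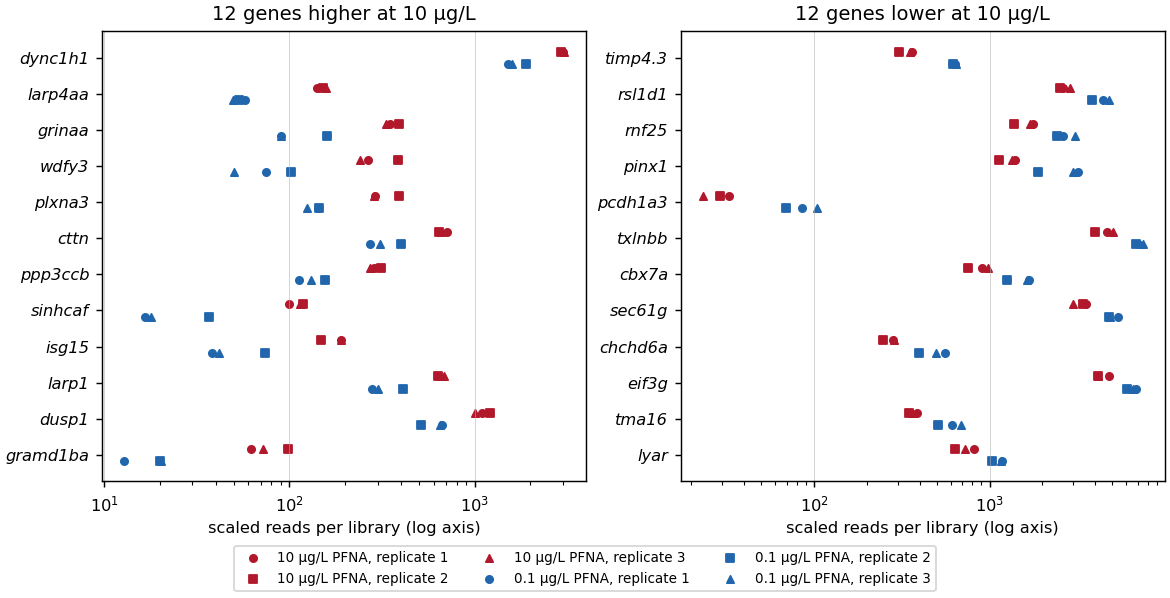
Scaled reads per library (x axis, log scale) of the 12 genes higher and the 12 genes lower at 10 µg/L with the smallest limma p-values, one gene per row. Red points are 10 µg/L and blue points 0.1 µg/L libraries, and symbols mark the replicate. The groups do not overlap for any of the 24 genes, which were picked for small p-values in these same libraries (28.8% of all genes did not overlap). Replicate 2 at 0.1 µg/L (square) is often the blue point nearest to the red ones.

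The lists were not alike in how many members were called. The shares to compare them with are the 14.2% of all genes that were higher and the 11.5% that were lower. Cytosolic ribosomal proteins, oxidative phosphorylation genes, translation factors and neuropeptides had most of their calls on the lower side. Apolipoproteins, collagens, plasma proteins and genes of axon guidance and synapses had most of theirs on the higher side. Counts with a library left out are to be read against the shares of all genes in the same fit. These were 20.9% higher and 18.2% lower without 0.1 µg/L replicate 2, and 9.7% and 6.41% without replicate 1 and 9.18% and 6.01% without replicate 3 of that group. Without 10 µg/L replicates 1, 2 and 3 in turn they were 10.5%, 9.96% and 10.5% higher, and 9.76%, 8.11% and 8.53% lower. No list was tested as a set.

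**Figure D4:**
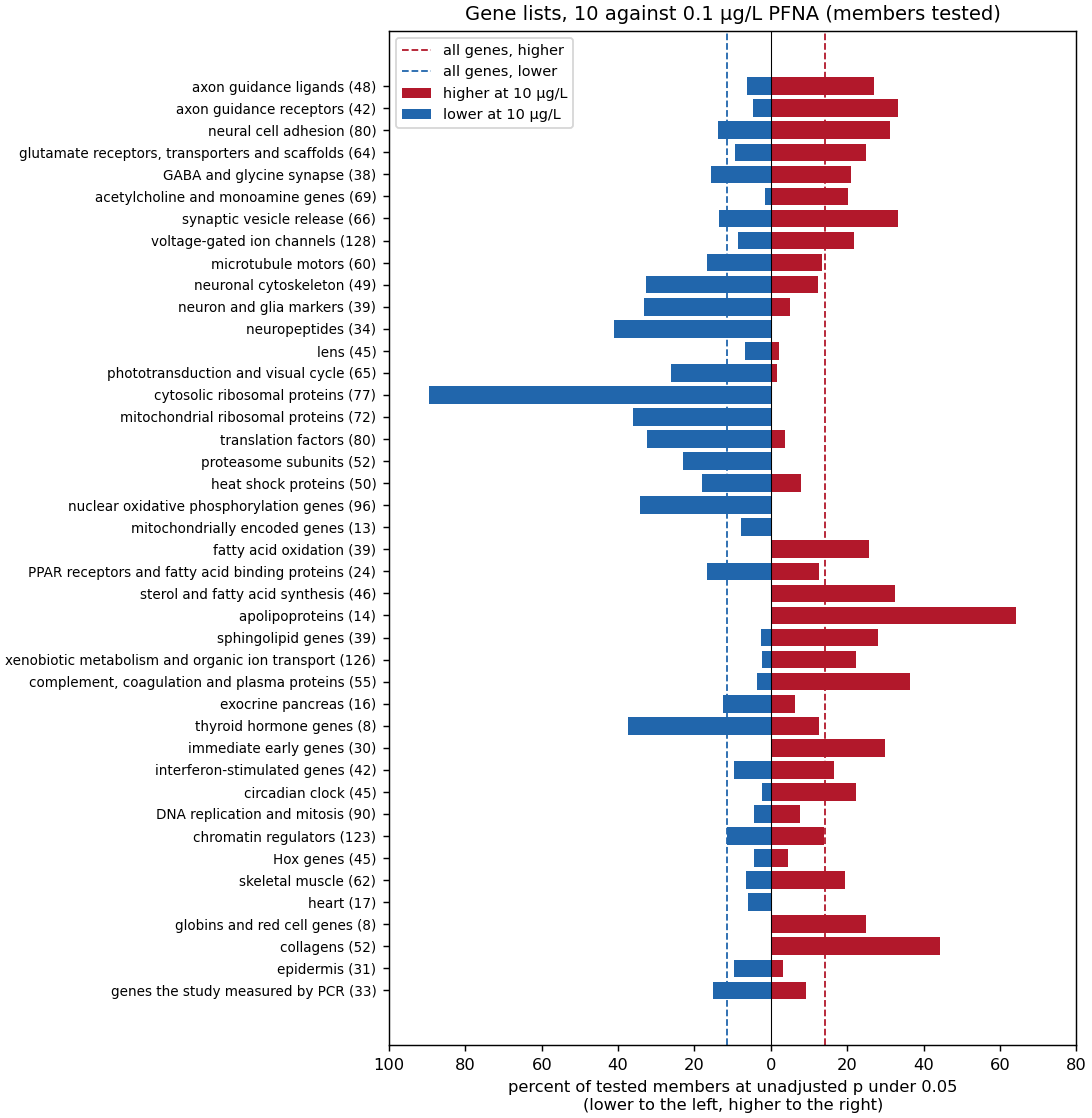
Percent of the tested members of each of the 42 gene lists (number tested in parentheses) that were higher (red, to the right) or lower (blue, to the left) at 10 µg/L at an unadjusted limma p-value under 0.05. Dashed lines give the share of all genes tested, 14.2% higher and 11.5% lower; 89.6% of the cytosolic ribosomal protein genes were lower and 64.3% of the apolipoprotein genes were higher.

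Transcripts of cytosolic ribosomal proteins, the structural proteins of the 40S and 60S subunits, were lower at 10 µg/L almost as a whole. Of 77 genes, 69 (89.6%) were lower and 0 higher, against 11.5% of all genes lower, and 76 had a negative log2 difference. All 3 libraries at 10 µg/L lay below all 3 at 0.1 µg/L for 76 of them, against 14% of all genes, and 66 passed by DESeq2 at an adjusted p-value, against 4% of all genes. The median log2 difference was -0.55, compared with 0.00248 over all genes. The large subunit gene rpl14 had 22151, 20492 and 19888 scaled reads at 10 µg/L, against 40849.9, 28976 and 35252 at 0.1 µg/L, a log2 difference of -0.74 (SE 0.16, DESeq2 adjusted p = 0.000327). The small subunit gene rps27.2 had 14159, 12660.5 and 12881 scaled reads at 10 µg/L, against 24812, 17793 and 22014 at 0.1 µg/L. In both genes replicate 2 was the lowest 0.1 µg/L library and still above the 10 µg/L libraries. DMSO controls had 42077, 33771 and 24831 scaled reads of rpl14 and 24819, 17655 and 16862 of rps27.2, which overlapped the 0.1 µg/L values. The gene outside this pattern was rpl26, with 394, 292 and 271 scaled reads at 10 µg/L, against 260.3, 274 and 238 at 0.1 µg/L, overlapping groups and no call. Together these genes took 12.4%, 12.5% and 12.4% of the reads at 10 µg/L, against 16.9%, 14.5% and 15.6% at 0.1 µg/L. The ribosomal count was 75, 57 and 58 without 10 µg/L replicates 1, 2 and 3 in turn, and 59, 69 and 59 without 0.1 µg/L replicates 1, 2 and 3 in turn. Its median stayed negative with TMM, quantile and total-read scaling (-0.55, -0.22 and -0.38). Reads that fit more than 1 place in the genome were not counted, and how many of them came from ribosomal protein genes is not known.

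Other lists of protein synthesis, and that of the proteasome, had calls on the same side in a smaller share of members. Of 72 mitochondrial ribosomal proteins, 26 (36.1%) were lower and 0 higher, with a median log2 difference of -0.27. The mitochondrial large subunit gene mrpl52 had 87.1, 87.8 and 109 scaled reads at 10 µg/L, against 188, 168 and 176 at 0.1 µg/L, a log2 difference of -0.91 (SE 0.18), and mrps33 of the small subunit had 226, 274 and 261 scaled reads at 10 µg/L, against 372, 359 and 419.9 at 0.1 µg/L. The groups were clearly apart for both, and 0.1 µg/L replicate 2 was close to its group. The largest values without a negative sign were those of mrpl16 (0.14) and mrps30 (0.07), neither with a limma p-value under 0.05. The mitochondrial ribosomal count was 25, 16 and 14 without 10 µg/L replicates 1, 2 and 3 in turn, and 16, 38 and 11 without 0.1 µg/L replicates 1, 2 and 3 in turn. Of 80 translation factors, 26 (32.5%) were lower and 3 higher, including eif3g above and eif3jb, which encodes another subunit of initiation factor 3. The values of eif3jb were 879.6, 962 and 816 at 10 µg/L, against 1592, 1081 and 1478 at 0.1 µg/L. Higher factors included eif4g2a, which acts in cap-independent initiation, with 732, 836 and 718 scaled reads at 10 µg/L, against 429.5, 546 and 513 at 0.1 µg/L, and eif2ak3, which encodes the endoplasmic reticulum stress kinase PERK, with 290.4, 322 and 319 scaled reads at 10 µg/L, against 195, 212 and 208 at 0.1 µg/L. The third was eif4eb (0.97), of the cap-binding family, and without 0.1 µg/L replicate 2 there were 8. The first 2 did not overlap between the concentrations. Lower translation factors numbered 29, 18 and 20 without 10 µg/L replicates 1, 2 and 3 in turn, and 19, 29 and 18 without 0.1 µg/L replicates 1, 2 and 3 in turn. Of 52 proteasome genes, 12 (23.1%) were lower and 0 higher, among them the core subunit gene psma4 with 1652, 1194 and 1433 scaled reads at 10 µg/L, against 1969, 2004 and 2059 at 0.1 µg/L and the assembly chaperone gene psmg3 (-0.53). By DESeq2 at an adjusted p-value, 2 of the 52 were lower, against 4% of all genes. The proteasome count was 22, 6 and 6 without 10 µg/L replicates 1, 2 and 3 in turn, and 12, 11 and 7 without 0.1 µg/L replicates 1, 2 and 3 in turn.

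Genes of oxidative phosphorylation, which encode the respiratory chain and ATP synthase, were lower or not called. Of 96 nuclear genes, 33 (34.4%) were lower and 0 higher, with a median log2 difference of -0.21. By DESeq2 at an adjusted p-value, 5 of the 96 were lower, against 4% of all genes. The ATP synthase inhibitor gene atp5if1b had 1539, 1225 and 1303 scaled reads at 10 µg/L, against 2137, 1926 and 1986 at 0.1 µg/L, a log2 difference of -0.58 (SE 0.12), and the cytochrome c oxidase subunit gene cox4i2 had 842, 728 and 711 scaled reads at 10 µg/L, against 1235, 1004 and 1245 at 0.1 µg/L. The differences in this list were small, and none of the extremes reached beyond -0.90 or 0.54. The genes ndufs1 (0.22) and atp5f1b (0.27) had positive differences with limma p-values above 0.05, while 79 of the 96 genes had negative ones. The count was 41, 18 and 13 without 10 µg/L replicates 1, 2 and 3 in turn, and 11, 38 and 17 without 0.1 µg/L replicates 1, 2 and 3 in turn. Of the 13 mitochondrially encoded genes, 1 was lower, mt-nd6 of complex I, with 17789.5, 13611 and 14416 scaled reads at 10 µg/L, against 29620.5, 18751 and 26267 at 0.1 µg/L. The other 12 did not pass, although 11 of them had negative differences, and without 10 µg/L replicate 1 the number lower was 9. Mitochondrially encoded transcripts took 5.92%, 5.04% and 4.6% of the reads at 10 µg/L, against 5.58%, 5.3% and 5.68% at 0.1 µg/L.

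Heat shock proteins had calls in both directions, 4 higher and 9 lower of 50, with a median log2 difference of 0.00. The co-chaperone gene dnajb12b had 184, 189 and 203 scaled reads at 10 µg/L, against 29.5, 81.7 and 40.4 at 0.1 µg/L, a log2 difference of 2.04 (SE 0.33). The cytosolic chaperone gene hsp90aa1.2 had 1632, 1555 and 1463 scaled reads at 10 µg/L, against 3556, 1831 and 3211 at 0.1 µg/L, and the collagen chaperone gene serpinh1b had 272, 219 and 268 scaled reads at 10 µg/L, against 441, 342 and 362 at 0.1 µg/L. These chaperones thus differed in opposite directions between the concentrations. The symbol family also took in hspg2, which encodes the basement membrane proteoglycan perlecan and is no chaperone, at 0.42 (SE 0.13). The other higher members were dnajb6a (0.44) and hspa13 (0.74). Without 0.1 µg/L replicate 2, 10 members were higher and 11 lower.

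Axon guidance genes encode secreted or membrane-bound cues and the receptors with which growth cones read them. Of 48 ligands, 13 (27.1%) were higher and 3 lower, and of 42 receptors, 14 (33.3%) were higher and 2 lower, against 14.2% and 11.5% of all genes. By DESeq2 at an adjusted p-value, 8 ligands and 7 receptors were higher, against 4.85% of all genes, and 1 of each was lower, against 4%. The repulsive midline cue slit1a had 275, 287 and 231 scaled reads at 10 µg/L, against 37.2, 139.7 and 51.6 at 0.1 µg/L, a log2 difference of 2.01 (SE 0.40, DESeq2 adjusted p = 0.000627). Its 10 µg/L libraries were alike, while 0.1 µg/L replicate 2 lay between them and the other 0.1 µg/L libraries. The ephrin gene efnb1 had 49.6, 63.3 and 78.0 scaled reads at 10 µg/L, against 5.13, 22.8 and 10.1 at 0.1 µg/L, a log2 difference of 2.44 (SE 0.49), from fewer reads. The DMSO controls had 2.98, 12.9 and 58.0 scaled reads of efnb1, so that DMSO replicate 3 reached the level at 10 µg/L. In the other direction, sema7a, a membrane-anchored semaphorin, had 155, 176 and 177 scaled reads at 10 µg/L, against 441, 234 and 340.2 at 0.1 µg/L, and the netrin-G gene ntng1a had 624, 614 and 689 scaled reads at 10 µg/L, against 950.0, 713 and 1033 at 0.1 µg/L. The third lower ligand was sema6d (-0.63). The call of ntng1a was lost without 0.1 µg/L replicate 3. The count of higher ligands was 13, 9 and 10 without 10 µg/L replicates 1, 2 and 3 in turn, and 9, 17 and 10 without 0.1 µg/L replicates 1, 2 and 3 in turn, and that of lower ones ranged between 1 without 0.1 µg/L replicate 3 and 8 without 0.1 µg/L replicate 2.

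The receptors that were higher were led by plexins, which receive semaphorins. The gene plxna3 had 291, 390.0 and 287 scaled reads at 10 µg/L, against 142, 144 and 125 at 0.1 µg/L, a log2 difference of 1.22 (SE 0.17, DESeq2 adjusted p = 1.13e-05), and plxna2 had 96.5, 148 and 91.3 scaled reads at 10 µg/L, against 28.2, 37.1 and 15.7 at 0.1 µg/L, a log2 difference of 2.06 (SE 0.35). Replicate 2 at 0.1 µg/L was close to its group for plxna3. A further plexin, plxna4, differed the other way, with 1071, 1085 and 1121 scaled reads at 10 µg/L, against 1476, 1128 and 1471 at 0.1 µg/L, and lost its call when any library other than 0.1 µg/L replicate 2 was left out. The Slit receptor gene robo2 had 2303, 2212 and 2274 scaled reads at 10 µg/L, against 4359, 2419.7 and 3777 at 0.1 µg/L, a log2 difference of -0.59 (SE 0.19). For robo2 the 10 µg/L libraries were alike and replicate 2 at 0.1 µg/L was just above them. Higher receptors numbered 12, 11 and 9 without 10 µg/L replicates 1, 2 and 3 in turn, and 9, 14 and 12 without 0.1 µg/L replicates 1, 2 and 3 in turn, and lower ones ranged between 1 without 5 of the libraries in turn and 7 without 0.1 µg/L replicate 2.

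Neural cell adhesion molecules, which hold axons together and join synapses, were called in both directions. Of 80 genes, 25 (31.2%) were higher and 11 (13.8%) lower. The L1-type adhesion gene l1camb had 125, 189 and 124 scaled reads at 10 µg/L, against 15.4, 66.5 and 11.2 at 0.1 µg/L, a log2 difference of 2.59 (SE 0.55), and the contactin gene cntn2 had 93.7, 128 and 105 scaled reads at 10 µg/L, against 37.2, 54.2 and 42.7 at 0.1 µg/L. Both were higher in every library at 10 µg/L, and for l1camb replicate 2 at 0.1 µg/L was well above the other libraries of its group. Values of the synaptic adhesion gene lrrtm1 were 1414, 1233 and 1140.5 at 10 µg/L, against 2017, 1512 and 2036 at 0.1 µg/L. The higher adhesion genes numbered 19, 15 and 21 without 10 µg/L replicates 1, 2 and 3 in turn, and 18, 30 and 17 without 0.1 µg/L replicates 1, 2 and 3 in turn, and the lower ones 7, 9 and 8 without 10 µg/L replicates 1, 2 and 3 in turn, and 5, 18 and 5 without 0.1 µg/L replicates 1, 2 and 3 in turn.

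Synaptic genes were more often higher than lower at 10 µg/L, but each transmitter system had members on both sides. Part of this rested on 10 µg/L replicate 2. List means, on the log2 scale and relative to each gene's mean over the 6 libraries, were 0.04, 0.26 and 0.07 at 10 µg/L for glutamate genes. They were 0.02, 0.29 and -0.02 for GABA and glycine genes, and 0.11, 0.28 and 0.01 for vesicle release. At 0.1 µg/L they were -0.16, -0.03 and -0.19, then -0.14, -0.03 and -0.13, then -0.24, 0.00 and -0.16. Of 64 genes for glutamate receptors, transporters and scaffolds, 16 (25%) were higher and 6 lower. The AMPA receptor subunit gene gria2a had 819, 852 and 864 scaled reads at 10 µg/L, against 250.0, 535 and 388 at 0.1 µg/L, a log2 difference of 1.18 (SE 0.23, DESeq2 adjusted p = 0.000627), and the glutamate transporter gene slc1a6 had 106, 128 and 123 scaled reads at 10 µg/L, against 19.2, 56.1 and 25.8 at 0.1 µg/L. For both, 0.1 µg/L replicate 2 was the highest library of its group. The NMDA receptor subunit gene grin2db had 279, 242 and 265 scaled reads at 10 µg/L, against 799, 316 and 674 at 0.1 µg/L, a log2 difference of -1.08 (SE 0.29), with replicate 2 far below the other 0.1 µg/L libraries. Higher glutamate genes numbered 14, 12 and 13 without 10 µg/L replicates 1, 2 and 3 in turn, and 14, 16 and 12 without 0.1 µg/L replicates 1, 2 and 3 in turn, and lower ones ranged between 2 without 0.1 µg/L replicate 1 or 0.1 µg/L replicate 3 and 13 without 0.1 µg/L replicate 2. Another lower gene was the metabotropic receptor gene grm8b (-0.49).

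Of 38 genes of GABA and glycine synapses, 8 (21.1%) were higher and 6 (15.8%) lower. The glycine transporter gene slc6a5, a marker of glycinergic neurons, had 62.8, 156 and 85.5 scaled reads at 10 µg/L, against 16.7, 37.1 and 13.5 at 0.1 µg/L, a log2 difference of 2.16 (SE 0.44). The GABA transporter gene slc6a1a had 2133, 1926 and 1941 scaled reads at 10 µg/L, against 4576, 2114 and 3609 at 0.1 µg/L, and its groups overlapped through replicate 2. The GABA-B receptor gene gabbr2 had 56.2, 67.0 and 42.3 scaled reads at 10 µg/L, against 19.2, 24.7 and 30.3 at 0.1 µg/L, and glrbb, which encodes the glycine receptor beta subunit, had 1319.9, 1381 and 1201 scaled reads at 10 µg/L, against 1787, 1516 and 1969.5 at 0.1 µg/L. Transporter and receptor genes of inhibitory synapses thus did not share a direction. The higher inhibitory synapse genes numbered 6, 4 and 9 without 10 µg/L replicates 1, 2 and 3 in turn, and 7, 13 and 6 without 0.1 µg/L replicates 1, 2 and 3 in turn, and the lower ones 4, 4 and 4 without 10 µg/L replicates 1, 2 and 3 in turn, and 3, 9 and 2 without 0.1 µg/L replicates 1, 2 and 3 in turn. Of 69 acetylcholine and monoamine genes, 14 (20.3%) were higher and 1 lower. The serotonin transporter gene slc6a4a had 28.1, 52.5 and 41.5 scaled reads at 10 µg/L, against 5.13, 15.2 and 6.74 at 0.1 µg/L, a log2 difference of 2.14 (SE 0.48), and the nicotinic receptor subunit gene chrnb2b had 292, 299 and 238 scaled reads at 10 µg/L, against 84.6, 189 and 134 at 0.1 µg/L. The lower one was the vesicular acetylcholine transporter gene slc18a3a, with 391, 371 and 380.2 scaled reads at 10 µg/L, against 563, 424 and 487 at 0.1 µg/L, whose call was lost without 4 of the libraries in turn. The count of higher acetylcholine and monoamine genes was 9, 12 and 11 without 10 µg/L replicates 1, 2 and 3 in turn, and 8, 22 and 11 without 0.1 µg/L replicates 1, 2 and 3 in turn, and that of lower ones ranged between 0 without 10 µg/L replicate 3 or 0.1 µg/L replicate 1 and 5 without 0.1 µg/L replicate 2.

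Of 66 genes of synaptic vesicle release, 22 (33.3%) were higher and 9 (13.6%) lower, with a median log2 difference of 0.02. The endocytic dynamin gene dnm1b had 344, 452 and 332 scaled reads at 10 µg/L, against 156, 256 and 164 at 0.1 µg/L, a log2 difference of 0.99 (SE 0.21). The SNARE gene snap25b, an abundant neuronal transcript, had 4258, 4408 and 4007 scaled reads at 10 µg/L, against 6279.5, 4654 and 5959 at 0.1 µg/L, and its call was lost without 0.1 µg/L replicate 3. The name rab3c, of a vesicle GTPase, is carried by 2 identifiers, which differed in opposite directions. The first (ENSDARG00000042803) had 91.8, 102 and 69.7 scaled reads at 10 µg/L, against 5.13, 30.4 and 15.7 at 0.1 µg/L, and the other (ENSDARG00000014462) had 318, 279 and 359 scaled reads at 10 µg/L, against 545, 346 and 488 at 0.1 µg/L. The groups of the second identifier overlapped, and its call was lost without 3 of the libraries in turn. How reads were divided between these near copies is uncertain. Lower vesicle genes numbered 5, 6 and 2 without 10 µg/L replicates 1, 2 and 3 in turn, and 1, 16 and 0 without 0.1 µg/L replicates 1, 2 and 3 in turn, and higher ones 18, 13 and 19 without 10 µg/L replicates 1, 2 and 3 in turn, and 16, 24 and 16 without 0.1 µg/L replicates 1, 2 and 3 in turn. Of 128 voltage-gated ion channel genes, 28 (21.9%) were higher and 11 lower, with a median log2 difference of 0.14 that turned to -0.02 with quantile normalization. The sodium channel gene scn8aa, which carries action potentials at nodes and axon initial segments, had 494, 819 and 640.0 scaled reads at 10 µg/L, against 238, 424 and 264 at 0.1 µg/L, a log2 difference of 1.09 (SE 0.24). The AMPA receptor auxiliary genes cacng2b and cacng2a, which bear a channel name, had log2 differences of -0.51 (SE 0.14) and -0.45 (SE 0.12). Of the other channel genes, cacna2d2b, which encodes an auxiliary calcium channel subunit, had 204, 290.5 and 237 scaled reads at 10 µg/L, against 32.0, 144 and 35.9 at 0.1 µg/L, a log2 difference of 2.11 (SE 0.48). Higher channel genes numbered 25, 13 and 14 without 10 µg/L replicates 1, 2 and 3 in turn, and 18, 37 and 17 without 0.1 µg/L replicates 1, 2 and 3 in turn, and lower ones 6, 9 and 7 without 10 µg/L replicates 1, 2 and 3 in turn, and 7, 22 and 4 without 0.1 µg/L replicates 1, 2 and 3 in turn.

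Genes of microtubules and the neuronal cytoskeleton had calls on both sides. Of 60 microtubule motor genes, 8 (13.3%) were higher and 10 (16.7%) lower, not far from the 14.2% and 11.5% of all genes. The median log2 difference of the motor list was 0.03. The axonal kinesin gene kif1ab had 448, 648 and 392 scaled reads at 10 µg/L, against 66.7, 249 and 60.6 at 0.1 µg/L, a log2 difference of 2.26 (SE 0.45), and the dynein light chain gene dynlt1 had 74.9, 36.2 and 109.6 scaled reads at 10 µg/L, against 410.3, 156 and 235 at 0.1 µg/L, a log2 difference of -1.87 (SE 0.42). The dynein heavy chain and this light chain were thus on opposite sides. The dynactin gene dctn4 had a log2 difference of -0.93 (SE 0.26). Higher motor genes ranged between 6 without 10 µg/L replicate 3 and 11 without 0.1 µg/L replicate 2, and lower ones between 4 without 0.1 µg/L replicate 3 and 13 without 0.1 µg/L replicate 2. Of 49 cytoskeletal genes, 6 (12.2%) were higher and 16 (32.7%) lower, with a median log2 difference of -0.16 that turned to 0.01 with total-read scaling, where the median of all genes was 0.172. The tau gene mapta had 453, 751 and 500.5 scaled reads at 10 µg/L, against 47.4, 304 and 64.0 at 0.1 µg/L, a log2 difference of 2.49 (SE 0.55), while its duplicate maptb had 1312, 1172 and 1197 scaled reads at 10 µg/L, against 2003, 1417 and 1774 at 0.1 µg/L, a log2 difference of -0.48 (SE 0.14). Without replicate 2, the gap between the concentrations was wider for both duplicates. The neurofilament gene nefmb had 844, 807 and 868 scaled reads at 10 µg/L, against 1750.0, 1026 and 1679.8 at 0.1 µg/L, and the microtubule regulator stmn4 had 1654, 1789.8 and 1864 scaled reads at 10 µg/L, against 2349, 2211 and 2494 at 0.1 µg/L. Lower cytoskeletal genes numbered 14, 12 and 13 without 10 µg/L replicates 1, 2 and 3 in turn, and 11, 21 and 10 without 0.1 µg/L replicates 1, 2 and 3 in turn.

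Markers of neurons and glia did not follow the axon and synapse genes. Of 39 markers, 2 were higher and 13 (33.3%) lower. Their median log2 difference was -0.16, or 0.01 with total-read scaling, where the median of all genes was 0.172. The myelin basic protein gene mbpa had 2328, 2149.9 and 2344 scaled reads at 10 µg/L, against 2938, 2939 and 3041 at 0.1 µg/L, a log2 difference of -0.39 (SE 0.10), and the RNA-binding neuronal gene celf4 had 1077, 912 and 934 scaled reads at 10 µg/L, against 2308, 1180.4 and 1694 at 0.1 µg/L. The higher ones were nova1, a neuronal splicing factor gene, with 212, 378 and 271 scaled reads at 10 µg/L, against 115, 132 and 48.3 at 0.1 µg/L, and the myelin-associated glycoprotein gene mag, with 179, 229.8 and 192 scaled reads at 10 µg/L, against 25.6, 141 and 47.2 at 0.1 µg/L. These myelin genes thus lay on opposite sides. Marker means over the list, on the log2 scale and relative to each gene's mean over the 6 libraries, were -0.04, -0.01 and -0.09 at 10 µg/L, against 0.14, -0.01 and 0.02 at 0.1 µg/L. The lower markers numbered 9, 9 and 8 without 10 µg/L replicates 1, 2 and 3 in turn, and 7, 17 and 7 without 0.1 µg/L replicates 1, 2 and 3 in turn.

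Neuropeptide genes, which are expressed in small groups of hypothalamic and other neurons, had no member higher. Of 34 genes, 14 (41.2%) were lower, 31 had a negative difference, and for 18 all libraries at 10 µg/L lay below all at 0.1 µg/L, against 14% of all genes. The median log2 difference was -0.49. Neuropeptide Y (npy), which promotes feeding and sleep in zebrafish, had 115, 154 and 159 scaled reads at 10 µg/L, against 265, 216 and 272 at 0.1 µg/L, a log2 difference of -0.82 (SE 0.18). The tachykinin gene tac3a, whose neurokinin B peptides act on reproductive neurons, had 85.2, 114 and 122 scaled reads at 10 µg/L, against 215, 173 and 231 at 0.1 µg/L. The DMSO controls had 241, 219 and 158 scaled reads of npy, with DMSO replicate 3 inside the range at 10 µg/L. The genes with a positive difference included gnrh3 (0.31) and sst1.2 (0.06), with overlapping groups. The neuropeptide count was 10, 13 and 10 without 10 µg/L replicates 1, 2 and 3 in turn, and 8, 18 and 7 without 0.1 µg/L replicates 1, 2 and 3 in turn.

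In the eye, 1 lens gene was higher and 3 were lower of 45, and 41 had a negative difference. The lower lens genes numbered 10, 13 and 2 without 10 µg/L replicates 1, 2 and 3 in turn, and 2, 2 and 3 without 0.1 µg/L replicates 1, 2 and 3 in turn. The higher one was the beta crystallin gene crybb1l3 (1.02), whose call was lost without 3 of the libraries in turn. The median of the lens list was -0.27 and turned to 0.04 without 10 µg/L replicate 3, whose list mean was -0.59 against 0.12 and 0.14 in the other 10 µg/L libraries. The alpha crystallin gene cryaa had 354, 312 and 276 scaled reads at 10 µg/L, against 483, 435 and 473 at 0.1 µg/L, a log2 difference of -0.57 (SE 0.14), and the other lower genes were crygm2d7 (-0.60) and lim2.4 (-0.37). Gamma crystallin genes are near-identical copies, and values of single members are uncertain. Of 65 genes of phototransduction and the visual cycle, 17 (26.2%) were lower and 1 higher. By DESeq2 at an adjusted p-value, 1 of the 65 was lower, against 4% of all genes. That gene was the cone phosphodiesterase subunit pde6ha, with 9426, 9835 and 9655 scaled reads at 10 µg/L, against 21191, 12845 and 18015 at 0.1 µg/L, a log2 difference of -0.82 (SE 0.17, DESeq2 adjusted p = 0.000573). Recoverin genes were on both sides, rcvrn2 with 5441, 6509 and 5458 scaled reads at 10 µg/L, against 8223, 6593 and 8199 at 0.1 µg/L and rcvrn3 with 9297, 10600.2 and 8916 scaled reads at 10 µg/L, against 6951, 8845 and 6850.5 at 0.1 µg/L. The call of rcvrn2 was lost without 0.1 µg/L replicate 3, and that of rcvrn3 without 3 of the libraries in turn. The count of lower photoreceptor genes was 10, 14 and 7 without 10 µg/L replicates 1, 2 and 3 in turn, and 3, 26 and 4 without 0.1 µg/L replicates 1, 2 and 3 in turn, and that of higher ones ranged between 0 without 10 µg/L replicate 2 or 0.1 µg/L replicate 3 and 4 without 10 µg/L replicate 3 or 0.1 µg/L replicate 2.

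**Figure D5:**
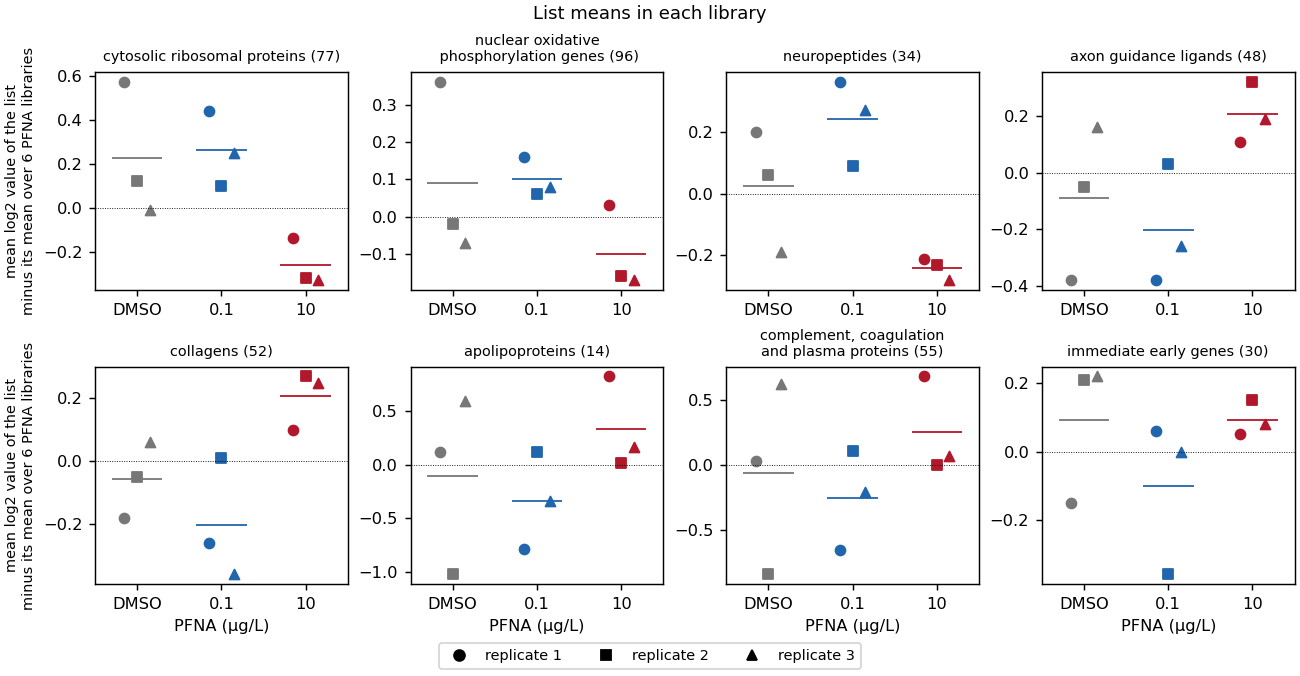
Mean over list members of log2(scaled reads + 1) in each library, relative to each gene's mean over the 6 PFNA libraries (y axis, log2 units), for 8 of the lists at 0 (DMSO), 0.1 and 10 µg/L PFNA (x axis). Symbols mark replicates and short lines the mean of 3. Ribosomal protein means were 0.44, 0.10 and 0.25 at 0.1 µg/L and -0.14, -0.32 and -0.33 at 10 µg/L, while the plasma protein and apolipoprotein lists spread most between libraries of one group.

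Of 39 genes of fatty acid oxidation, 10 (25.6%) were higher and 0 lower. The trifunctional protein gene hadhab, which carries out the last steps of mitochondrial β-oxidation, had 522, 591 and 496 scaled reads at 10 µg/L, against 389.7, 404 and 347 at 0.1 µg/L, a log2 difference of 0.49 (SE 0.13). The acyl-CoA synthetase gene acsl1b had 716, 452 and 509 scaled reads at 10 µg/L, against 242, 414 and 317 at 0.1 µg/L. The rate-limiting carnitine palmitoyltransferase gene cpt1b was not called (log2 difference -0.34, SE 0.22). Counts of higher fatty acid oxidation genes were 4, 6 and 9 without 10 µg/L replicates 1, 2 and 3 in turn, and 7, 15 and 6 without 0.1 µg/L replicates 1, 2 and 3 in turn, and 2 were lower without 10 µg/L replicate 3 or 0.1 µg/L replicate 2. Of 24 PPAR and fatty acid binding protein genes, 3 (12.5%) were higher and 4 (16.7%) lower, near the 14.2% and 11.5% of all genes. The fatty acid receptor gene pparaa had 187, 141 and 188 scaled reads at 10 µg/L, against 74.4, 128 and 70.7 at 0.1 µg/L, a log2 difference of 0.95 (SE 0.26), and its partner receptor gene rxrba had 148, 254 and 162 scaled reads at 10 µg/L, against 21.8, 113 and 30.3 at 0.1 µg/L. The binding protein genes fabp3 and fabp6 differed the other way, fabp3 with 4192, 4240.1 and 3866 scaled reads at 10 µg/L, against 6286, 4919 and 5448 at 0.1 µg/L and fabp6, the ileal bile acid binding protein, with 4960.3, 4315 and 4308 scaled reads at 10 µg/L, against 7638, 5628 and 5650.2 at 0.1 µg/L. The third higher gene was rxrbb (0.98), another partner receptor, and the other lower ones were fabp11a (-0.42) and fabp7b (-0.62). The few higher calls were receptor genes and the few lower ones binding protein genes, but with shares near those of all genes no pattern is read from them. Over the whole list, 12 members had a positive and 12 a negative difference. The higher members numbered 4, 6 and 3 without 10 µg/L replicates 1, 2 and 3 in turn, and 3, 6 and 3 without 0.1 µg/L replicates 1, 2 and 3 in turn, and the lower ones 4, 4 and 4 without 10 µg/L replicates 1, 2 and 3 in turn, and 2, 6 and 4 without 0.1 µg/L replicates 1, 2 and 3 in turn.

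Of 46 genes of sterol and fatty acid synthesis, 15 (32.6%) were higher and 0 lower, with a median log2 difference of 0.29. The lanosterol demethylase gene cyp51, a step of cholesterol synthesis, had 259, 178 and 209 scaled reads at 10 µg/L, against 85.9, 106 and 84.2 at 0.1 µg/L, a log2 difference of 1.21 (SE 0.20, DESeq2 adjusted p = 0.000235). All libraries of cyp51 were clear of the other group, replicate 2 included. The sterol sensor gene scap, which escorts SREBP to the Golgi, had 74.9, 91.4 and 54.0 scaled reads at 10 µg/L, against 12.8, 36.1 and 12.3 at 0.1 µg/L. The elongase gene elovl6 had 507, 567 and 532 scaled reads at 10 µg/L, against 829.5, 508 and 659 at 0.1 µg/L, and its groups overlapped. Counts of higher sterol and fatty acid genes were 9, 11 and 16 without 10 µg/L replicates 1, 2 and 3 in turn, and 12, 18 and 10 without 0.1 µg/L replicates 1, 2 and 3 in turn. Of 39 sphingolipid genes, 11 (28.2%) were higher and 1 lower. The ceramide synthase gene cers4a had 149.9, 179 and 155 scaled reads at 10 µg/L, against 41.0, 91.2 and 58.4 at 0.1 µg/L, and the lysosomal sphingomyelinase gene smpd1 had 139, 111 and 108 scaled reads at 10 µg/L, against 41.0, 74.1 and 47.2 at 0.1 µg/L. The lower member was smpd5, a mitochondrial sphingomyelinase gene in mammals, with 187, 195 and 199 scaled reads at 10 µg/L, against 341, 207 and 304 at 0.1 µg/L, and its call was lost without 3 of the libraries in turn. The higher sphingolipid genes numbered 10, 10 and 10 without 10 µg/L replicates 1, 2 and 3 in turn, and 8, 17 and 8 without 0.1 µg/L replicates 1, 2 and 3 in turn.

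Apolipoproteins, which carry lipids in plasma and come largely from liver, intestine and yolk syncytium, had the largest share of higher members. Of 14 genes, 9 (64.3%) were higher and 0 lower, and the median log2 difference was 0.68. The apolipoprotein B gene apoba had 331, 229 and 225 scaled reads at 10 µg/L, against 61.5, 193 and 109 at 0.1 µg/L, a log2 difference of 1.23 (SE 0.35), and apom had 1237, 986 and 800.2 scaled reads at 10 µg/L, against 565, 733 and 718 at 0.1 µg/L. Values of apoeb were 6887, 4859.9 and 6049 at 10 µg/L, against 6654, 6084 and 6452 at 0.1 µg/L, with no call. For 4 of the 14 genes all 10 µg/L libraries were above all 0.1 µg/L libraries, against 14.8% of all genes and fewer than the 9 calls. List means on the log2 scale were 0.82, 0.02 and 0.16 at 10 µg/L, against -0.78, 0.12 and -0.34 at 0.1 µg/L. Replicate 1 at 10 µg/L lay at the upper end and replicate 1 at 0.1 µg/L at the lower end. The apolipoprotein count was 3, 10 and 7 without 10 µg/L replicates 1, 2 and 3 in turn, and 4, 11 and 4 without 0.1 µg/L replicates 1, 2 and 3 in turn. The DMSO controls had list means of 0.12, -1.02 and 0.59, about as wide a range as that of the 6 exposed libraries.

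Liver-derived complement, coagulation and plasma proteins had more calls on the higher side as well, and spread widely between libraries. Of 55 genes, 20 (36.4%) were higher and 2 lower, with a median log2 difference of 0.61. By DESeq2 at an adjusted p-value, 10 of the 55 were higher, against 4.85% of all genes. The transferrin gene tfa, which transports iron in plasma, had 6758, 4538 and 4426 scaled reads at 10 µg/L, against 1463, 2876 and 2053 at 0.1 µg/L, a log2 difference of 1.32 (SE 0.24, DESeq2 adjusted p = 6.28e-05). The coagulation factor gene f7i had 107, 62.4 and 64.7 scaled reads at 10 µg/L, against 28.2, 23.8 and 25.8 at 0.1 µg/L. DMSO controls had 3063, 1026 and 6549.6 scaled reads of tfa, which spanned nearly the whole range of both concentrations. The lower genes were rbp4l, with 7501, 7192 and 7059 scaled reads at 10 µg/L, against 15323, 8995 and 11783 at 0.1 µg/L, and serpina10a, with 1426, 1518 and 1435 scaled reads at 10 µg/L, against 1833, 1786 and 2004 at 0.1 µg/L. The list was drawn by gene symbols, and whether the rbp4l reads came from liver was not tested. The list means were 0.68, 0.00 and 0.07 at 10 µg/L, against -0.65, 0.11 and -0.21 at 0.1 µg/L, so that the groups overlapped through 0.1 µg/L replicate 2. The count of higher plasma protein genes was 10, 18 and 15 without 10 µg/L replicates 1, 2 and 3 in turn, and 11, 35 and 15 without 0.1 µg/L replicates 1, 2 and 3 in turn. Of 126 genes of xenobiotic metabolism and organic ion transport, 28 (22.2%) were higher and 3 lower. The organic anion transporter gene slco4a1, of a family that carries thyroid hormones and bile acids, had 53.4, 82.3 and 63.9 scaled reads at 10 µg/L, against 7.69, 26.6 and 7.86 at 0.1 µg/L, a log2 difference of 2.37 (SE 0.48), and slc22a23 had 130.2, 182 and 148 scaled reads at 10 µg/L, against 41.0, 79.8 and 47.2 at 0.1 µg/L. The lower ones were gstcd (-0.64), sult4a1 (-0.30) and cyp2p10 (-1.02). The call of gstcd was lost without 10 µg/L replicate 2 and that of sult4a1 without 3 of the libraries in turn. The count of higher xenobiotic genes was 10, 34 and 21 without 10 µg/L replicates 1, 2 and 3 in turn, and 17, 52 and 15 without 0.1 µg/L replicates 1, 2 and 3 in turn, and that of lower ones ranged between 1 without 10 µg/L replicate 2 or 0.1 µg/L replicate 3 and 4 without 0.1 µg/L replicate 2. Exocrine pancreas genes had 1 member higher, the trypsin gene prss59.1 (0.50), and 2 lower of 16, cel.1 (-0.49) and cpa1 (-0.35). Each of these 3 calls was lost without 2 or more of the libraries in turn. Higher pancreas genes ranged between 0 without 10 µg/L replicate 2, 10 µg/L replicate 3 or 0.1 µg/L replicate 3 and 2 without 10 µg/L replicate 1. Lower ones ranged between 0 without 10 µg/L replicate 1 or 0.1 µg/L replicate 3 and 5 without 10 µg/L replicate 2. The median of -0.12 became 0.03 without 10 µg/L replicate 1 and 0.01 with quantile normalization. It became 0.05 with total-read scaling, where the median of all genes was 0.172.

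Among the 8 thyroid hormone genes tested, 1 was higher and 3 were lower. The thyroid hormone receptor duplicates differed in opposite directions, thrab with 33.7, 52.5 and 27.4 scaled reads at 10 µg/L, against 20.5, 12.3 and 15.7 at 0.1 µg/L and thraa with 96.5, 67.0 and 77.2 scaled reads at 10 µg/L, against 138, 116 and 121 at 0.1 µg/L. The call of thrab was lost without 10 µg/L replicate 2. The transcription factor gene nkx2.4a, expressed in the thyroid and hypothalamus, had 49.6, 50.7 and 49.8 scaled reads at 10 µg/L, against 147, 79.8 and 121 at 0.1 µg/L, a log2 difference of -1.16 (SE 0.26). The third lower gene was the receptor gene thrb (-0.62). The deiodinase gene dio1 had 231, 130.3 and 138 scaled reads at 10 µg/L, against 132, 205 and 114 at 0.1 µg/L, with overlapping groups. Immediate early genes, which respond within minutes to neural activity and stress, had 9 of 30 (30%) higher and 0 lower. The activity-dependent gene npas4a had 1232, 1722 and 1168 scaled reads at 10 µg/L, against 960.3, 595 and 857 at 0.1 µg/L, a log2 difference of 0.78 (SE 0.20), and fosaa had 63.7, 98.6 and 77.2 scaled reads at 10 µg/L, against 14.1, 37.1 and 31.4 at 0.1 µg/L. This list depended on 0.1 µg/L replicate 2, which had the lowest list mean, -0.36 against 0.06 and 0.00 in the others of its group. Without it, 6 members were higher and 7 lower, and without 10 µg/L replicate 3, 4 were higher and 2 lower. The early gene count was 7, 5 and 4 without 10 µg/L replicates 1, 2 and 3 in turn, and 10, 6 and 5 without 0.1 µg/L replicates 1, 2 and 3 in turn.

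Of 42 interferon-stimulated genes, 7 (16.7%) were higher and 4 (9.52%) lower, near the shares of all genes, and the median of 0.10 turned to -0.06 with quantile normalization. The ubiquitin-like gene isg15 was the clearest, with 190.2, 148 and 189 scaled reads at 10 µg/L, against 38.5, 74.1 and 41.5 at 0.1 µg/L, a log2 difference of 1.81 (SE 0.27, DESeq2 adjusted p = 1.13e-05). The DMSO controls had 61.1, 60.3 and 36.1 scaled reads of isg15, all 3 below the libraries at 10 µg/L, including DMSO replicate 3. The RIG-I-like receptor gene dhx58 had 48.7, 46.1 and 49.0 scaled reads at 10 µg/L, against 11.5, 18.1 and 22.5 at 0.1 µg/L, and its DMSO values were 10.4, 18.7 and 25.9. The guanylate-binding protein gene gbp3 had 407, 303 and 339.5 scaled reads at 10 µg/L, against 560.3, 497 and 476 at 0.1 µg/L, and the signal transducer gene stat1a had 1372, 1203 and 1279 scaled reads at 10 µg/L, against 2496, 1494 and 1946 at 0.1 µg/L. The other lower members were isg20 (-0.33) and irf2bp2b (-0.28). Members of the list were thus found on both sides. The higher members numbered 3, 5 and 5 without 10 µg/L replicates 1, 2 and 3 in turn, and 5, 7 and 3 without 0.1 µg/L replicates 1, 2 and 3 in turn, and the lower ones 4, 2 and 3 without 10 µg/L replicates 1, 2 and 3 in turn, and 2, 7 and 2 without 0.1 µg/L replicates 1, 2 and 3 in turn. Of 45 circadian clock genes, 10 (22.2%) were higher and 1 lower. The core activator gene clockb had 289.5, 327 and 288 scaled reads at 10 µg/L, against 146, 211 and 142 at 0.1 µg/L, a log2 difference of 0.88 (SE 0.18), and the output factor gene dbpa had 728, 855 and 666 scaled reads at 10 µg/L, against 359, 549 and 355 at 0.1 µg/L. The lower gene, arntl1a, which encodes the partner of Clock, had 186, 185 and 232 scaled reads at 10 µg/L, against 308, 208 and 308 at 0.1 µg/L and lost its call without 4 of the libraries in turn. Higher clock genes numbered 10, 7 and 8 without 10 µg/L replicates 1, 2 and 3 in turn, and 9, 12 and 9 without 0.1 µg/L replicates 1, 2 and 3 in turn, and lower ones 0, 0 and 3 without 10 µg/L replicates 1, 2 and 3 in turn, and 0, 5 and 0 without 0.1 µg/L replicates 1, 2 and 3 in turn.

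Genes of the nucleus and of growth had shares at or below those of all genes. Of 90 genes of DNA replication and mitosis, 7 were higher and 4 lower. The higher ones numbered 12, 0 and 5 without 10 µg/L replicates 1, 2 and 3 in turn, and 7, 8 and 3 without 0.1 µg/L replicates 1, 2 and 3 in turn, and the lower ones 2, 2 and 3 without 10 µg/L replicates 1, 2 and 3 in turn, and 1, 8 and 2 without 0.1 µg/L replicates 1, 2 and 3 in turn. Among the higher ones were the spindle checkpoint gene bub1 (1.09) and the replicative helicase gene mcm3 (0.49), whose calls were lost without 10 µg/L replicate 2. The lower ones were orc4 (-0.47), gins1 (-0.75), ccnb2 (-1.01) and cenpp (-0.47), and the calls of orc4 and gins1 were lost without 1 and 3 of the libraries in turn. Of 123 chromatin regulators, 17 (13.8%) were higher and 14 (11.4%) lower. The histone demethylase gene kdm2ba had 422, 546 and 456 scaled reads at 10 µg/L, against 169, 305 and 202 at 0.1 µg/L, a log2 difference of 1.11 (SE 0.21). The remodeling factor gene chd3 had 2009, 1678 and 1873 scaled reads at 10 µg/L, against 4055, 2189 and 3760.4 at 0.1 µg/L, with replicate 2 near the 10 µg/L libraries. The other genes with the smallest p-values were the remodeling complex gene arid1ab (1.42) and the bromodomain gene brd3a (-0.77). The higher chromatin genes numbered 21, 8 and 11 without 10 µg/L replicates 1, 2 and 3 in turn, and 14, 19 and 13 without 0.1 µg/L replicates 1, 2 and 3 in turn, and the lower ones 9, 7 and 7 without 10 µg/L replicates 1, 2 and 3 in turn, and 5, 27 and 3 without 0.1 µg/L replicates 1, 2 and 3 in turn. Of 45 Hox genes, 2 were higher and 2 lower. These were hoxc12a with 74.9, 48.9 and 70.5 scaled reads at 10 µg/L, against 6.41, 37.1 and 10.1 at 0.1 µg/L, hoxb9a (0.39), hoxc6b with 419, 332 and 248 scaled reads at 10 µg/L, against 756, 475 and 604 at 0.1 µg/L and hoxb3a (-0.46). The call of hoxb9a was lost without 10 µg/L replicate 3. Without 0.1 µg/L replicate 2, 5 Hox genes were higher and 5 lower.

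Collagens, the fibers and sheets of the extracellular matrix, were the most one-sided of the other tissue lists. Of 52 genes, 23 (44.2%) were higher and 0 lower, against 14.2% and 11.5% of all genes, and 28 genes were higher in every library at 10 µg/L than in any at 0.1 µg/L, against 14.8% of all genes. The median log2 difference was 0.38. The basement membrane gene col4a5 had 999, 961 and 989 scaled reads at 10 µg/L, against 528, 814 and 549 at 0.1 µg/L, a log2 difference of 0.67 (SE 0.16), and the cartilage gene col11a1b had 857, 842 and 791 scaled reads at 10 µg/L, against 542, 644 and 554 at 0.1 µg/L. For both the 10 µg/L libraries were alike. Collagen reads made up 0.429%, 0.513% and 0.497% of all reads at 10 µg/L, against 0.342%, 0.383% and 0.323% at 0.1 µg/L. The collagen chaperone serpinh1b, given above, lay on the other side. The collagen count was 22, 16 and 18 without 10 µg/L replicates 1, 2 and 3 in turn, and 20, 32 and 12 without 0.1 µg/L replicates 1, 2 and 3 in turn.

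Of 62 skeletal muscle genes, 12 (19.4%) were higher and 4 lower. The calcium store gene casq1a, of the sarcoplasmic reticulum of fast fibers, had 2218, 2395 and 1889 scaled reads at 10 µg/L, against 814, 1605 and 998 at 0.1 µg/L, a log2 difference of 0.98 (SE 0.22). The parvalbumin gene pvalb6, a calcium buffer, had 1231, 1397 and 1404 scaled reads at 10 µg/L, against 2583, 1632 and 2380.4 at 0.1 µg/L. The other lower genes were tnni2a.4 (-0.42), ttn.1 (-0.62) and pvalb9 (-0.36). Calcium-binding genes of this list were thus on both sides, but whether the pvalb6 reads came from muscle was not tested. The far more abundant parvalbumin gene pvalb2, with means of 222479 and 263225 scaled reads at 10 and 0.1 µg/L, was not called (-0.25). The second calsequestrin gene, casq2, had a log2 difference of 0.57 (SE 0.16), and the call of tnni2a.4 was lost without 3 of the libraries in turn. Counts of higher muscle genes were 5, 13 and 7 without 10 µg/L replicates 1, 2 and 3 in turn, and 5, 21 and 4 without 0.1 µg/L replicates 1, 2 and 3 in turn, and those of lower ones 11, 2 and 1 without 10 µg/L replicates 1, 2 and 3 in turn, and 2, 7 and 1 without 0.1 µg/L replicates 1, 2 and 3 in turn. Of 17 heart genes, 1 was lower, nkx2.5, with 16.9, 14.5 and 18.3 scaled reads at 10 µg/L, against 57.7, 18.1 and 46.0 at 0.1 µg/L, and its call was lost without any library but 0.1 µg/L replicate 2, where 2 heart genes were higher and 2 lower. Of 8 globin and red cell genes, 2 were higher, hbae3 with 1763, 1958 and 1495 scaled reads at 10 µg/L, against 1270.5, 1300.1 and 1182 at 0.1 µg/L and the heme synthesis gene alas2 (0.70), whose call was lost without 4 of the libraries in turn. Of 31 epidermal genes, 1 was higher and 3 lower. The epithelial transcription factor gene elf3 had 121, 226 and 159 scaled reads at 10 µg/L, against 42.3, 88.4 and 55.0 at 0.1 µg/L, a log2 difference of 1.45 (SE 0.31), and its DMSO values were 133, 123 and 137, nearer to those at 10 µg/L. The keratinocyte calcium-binding genes icn and icn2 were lower, with log2 differences of -0.42 (SE 0.13) and -0.35 (SE 0.11), with the keratin gene cyt1 (-0.39). The call of icn2 was lost without 10 µg/L replicate 3. The higher epidermal genes numbered 1, 2 and 2 without 10 µg/L replicates 1, 2 and 3 in turn, and 2, 7 and 1 without 0.1 µg/L replicates 1, 2 and 3 in turn, and the lower ones 6, 2 and 1 without 10 µg/L replicates 1, 2 and 3 in turn, and 2, 2 and 3 without 0.1 µg/L replicates 1, 2 and 3 in turn.

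The list of genes chosen for real-time PCR in this study was drawn by families of gene symbols. It therefore holds more genes than the study names as measured. Of 33 genes tested, 3 (9.09%) were higher and 5 (15.2%) lower, against 14.2% and 11.5% of all genes. The median log2 difference was 0.03. The caspase gene casp3a, an executioner of apoptosis, had 711, 818 and 740.4 scaled reads at 10 µg/L, against 485, 690.0 and 558 at 0.1 µg/L, a log2 difference of 0.40 (SE 0.14), and its call was lost without 3 of the libraries in turn. The other higher genes were mapta, given above, and the tubulin gene tuba1c (0.39). The lower ones were maptb and mbpa, given above, the neuronal RNA-binding gene elavl3 (-0.60), the axon growth gene gap43 (-0.57) and the patterning signal gene shha (-0.38). The lower PCR genes numbered 5, 4 and 4 without 10 µg/L replicates 1, 2 and 3 in turn, and 3, 9 and 3 without 0.1 µg/L replicates 1, 2 and 3 in turn, and higher ones ranged between 1 without 10 µg/L replicate 2 or 0.1 µg/L replicate 3 and 5 without 0.1 µg/L replicate 2.

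The DMSO controls were not part of the test but show where these genes lie without PFNA. Among the 2685 genes higher at 10 µg/L, the mean of the DMSO libraries lay below that at 0.1 µg/L for 420, between the concentrations for 2185 and above that at 10 µg/L for 80. Among the 2186 lower genes, it lay above that at 0.1 µg/L for 369, between them for 1773 and below that at 10 µg/L for 44. Genes picked for a wide gap leave more room between its ends, so these numbers are a description. The DMSO libraries were also wide apart in themselves, as the values of tfa, efnb1 and rpl14 show. List means of ribosomal proteins were 0.57, 0.12 and -0.01 in DMSO larvae, 0.44, 0.10 and 0.25 at 0.1 µg/L, and -0.14, -0.32 and -0.33 at 10 µg/L, so that for this list all 10 µg/L libraries were below all 6 others. List means of collagens were -0.18, -0.05 and 0.06 in DMSO larvae, -0.26, 0.01 and -0.36 at 0.1 µg/L, and 0.10, 0.27 and 0.25 at 10 µg/L, again with all 10 µg/L libraries on one side. List means of neuropeptides were 0.20, 0.06 and -0.19 in DMSO larvae, 0.36, 0.09 and 0.27 at 0.1 µg/L, and -0.21, -0.23 and -0.28 at 10 µg/L, with DMSO replicate 3 next to the 10 µg/L libraries.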

How the data were processed

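Poly(A) RNA of pooled larvae was sequenced with a strand-marking library kit. The authors trimmed the reads (Trimmomatic 0.36), mapped them to GRCz10 (STAR 2.5.2b) and used featureCounts (Subread 1.5.2) to count uniquely mapped reads in exons, and multi-copy genes can lose reads in this way. The deposited values are a signal, the read count of a gene divided by its library's DESeq2 size factor, in a separate table for each concentration. The tables also hold the authors' log2 fold changes and p-values, which were not used.

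Values of 12 library columns were 100% whole multiples of the value of 1 read (tolerance 0.05 of a read), so reads were recovered. The tables hold 19731 and 19251 genes, 19130 of them shared, with the same DMSO reads. The 6 PFNA libraries were scaled by median-of-ratios, and genes with a mean of at least 10 were tested on log2(scaled reads + 1) with limma 3.58.1 (trend, two-sided) in R 4.3.3, adjusted over all genes by Benjamini-Hochberg. Log2 differences are 10 minus 0.1 µg/L on this scale, which understates those of low genes, and SE is limma's standard error. Counting error at low reads adds to that between the 3 libraries. Alternatives were other pseudocounts, minimum means, scalings and limma settings, a replicate block, 9 libraries in the fit, edgeR 4.0.16, DESeq2 1.42.0 and leaving out each library. Fits were tested on simulated data. Figures and tables were made in Python 3.11.15 (pandas 2.3.3, numpy 2.4.6, matplotlib 3.10.9).

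The comparison, the lists and the alternatives were chosen with earlier results of these data known. Genes named were the 12 with the smallest limma p-value in each direction, clone names left out, and the 2 in each direction from each list, or fewer where one side of a list held fewer. Some of these are not reported here, most of them without a call. Other called members that complete a small count, and CR383676.1, were named after their values were seen. Gene lengths and sequences were not used here.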

Additional observations from a re-analysis of the deposited data

How the results depend on the processing

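Of the counts of called genes over the whole table, 72 of 88 alternative values were within 1.5 times the reported one. For the count at an adjusted p-value, reported as 0, only an alternative that was also 0 was included in the 72. The count at an unadjusted p-value (4871) lay between 2880 and 7415 when each library was left out, that of higher genes (2685) between 1741 and 3959, and that of lower genes (2186) between 1139 and 3456. With total-read scaling 4264 genes were higher and 776 lower. A minimum mean of 50 gave 1905 higher and 2026 lower, and quantile normalization 2372 and 2461. At an adjusted p-value, 0 genes passed by limma (4871 unadjusted), 1678 by DESeq2, 682 with total-read scaling and between 0 and 5124 when each library was left out. Chosen after seeing the data, DESeq2 without 0.1 µg/L replicate 2 gave 4545 genes at an adjusted p-value, and edgeR without it 4966, with 3394 lower at an unadjusted one. A replicate block let 734 genes pass at an adjusted and 4642 at an unadjusted p-value. Same-numbered libraries had a mean correlation of deviations across genes of 0.0295 (-0.0703, 0.0707 and 0.088), and not every library correlated best with its own number. The replicate numbers are those of the sample titles, and the column header of 0.1 µg/L replicate 3 bears a different number. The replicate block thus joined libraries by title number only. The labels state no pairing of beakers by number. Deviations from a mean of 3 libraries depend on each other, so these values cannot settle whether the beakers were paired. Of 29 list medians that were 0.1 or more from 0, 10 turned to the other sign under at least 1 alternative. With quantile normalization they were -0.02 for voltage-gated channels, 0.01 for exocrine pancreas, -0.06 for interferon-stimulated genes and -0.01 for globins. With total-read scaling they were 0.01 for neuronal cytoskeleton, neuron and glia markers, phototransduction and translation factors, and 0.05 for exocrine pancreas. That scaling moved the median of all genes to 0.172. Relative to it, these lists lay at -0.16, -0.16, -0.17, -0.16 and -0.12 in the same order. With each library left out, medians ranged from -0.28 to 0.03 for exocrine pancreas (highest without 10 µg/L replicate 1) and from -0.42 to 0.04 for lens (highest without 10 µg/L replicate 3), and the glutamate list had -0.01 without 10 µg/L replicate 2. Of the 13 list medians nearer to 0, 11 turned under at least 1 alternative, among them Hox genes (-0.17), DNA replication (-0.09), microtubule motors (-0.02), chromatin regulators (0.05) and PPAR and binding proteins (0.01) with quantile normalization, and the last 2 (both 0.15) with total-read scaling, and no direction is given for these lists. Among named genes without a call, the other sign was found for sst1.2 (-0.18), mt-nd2 (0.04) and apoeb (0.05) with quantile normalization and for elovl1b (0.01) and apoeb (0.05) with total-read scaling, and values with each library left out ranged from -0.01 to 0.16 for sst1.2, -0.06 to 0.21 for mrps30, -0.24 to 0.01 for apoeb and -0.12 to 0.38 for dio1. Of 149 called named genes, 123 kept a limma p-value under 0.05 without each library. Named genes were picked for small p-values in the same libraries, so this number does not measure how stable calls are in general. The share over all called genes was not computed. The cause of these changes was not tested. With 3 libraries per group and 1 standing apart, the p-values describe these beakers, and genes near 10 scaled reads rest on few reads.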

Other observations

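Genes without a family name were also among those with the smallest limma p-values and were left out of the named genes. The most abundant transcript of the comparison, CR383676.1 (ENSDARG00000099970), had 497117, 322125 and 342024 scaled reads at 10 µg/L, against 986601, 495987 and 809443 at 0.1 µg/L, a log2 difference of -0.95. Replicate 2 at 0.1 µg/L had about the value of 10 µg/L replicate 1 for it. In DMSO controls it had 900258, 677686 and 398339 scaled reads, with DMSO replicate 3 next to the 10 µg/L libraries. The gene si:dkey-40c11.1 (ENSDARG00000031345) had 83.4, 88.7 and 85.5 scaled reads at 10 µg/L, against 23.1, 29.5 and 21.3 at 0.1 µg/L, a log2 difference of 1.77 with alike libraries in each group.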
